A study of Homo sapiens with 18 samples.

Results

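The genes described here are CXCL8, CXCL1, CXCL2, CXCL3 and CCL20, which encode chemokines that are textbook targets of the transcription factor NF-κB. They were found by matching the RefSeq transcript targets of the expression panel to gene symbols, and these 5 genes are 5 of the 20802 genes listed. All measurements come from RKO cells, an established human colorectal carcinoma line, collected 72 h after transfection with 30 nM siRNA. The 6 groups comprised a pair of nontargeting siRNAs (siCtrl#1, siCtrl#2), a pair against Tsg101 (siTsg101#1, siTsg101#2) and a pair against Vps28 (siVps28#1, siVps28#2), with 3 replicates each and 18 libraries in all. Each sequence was a single commercial siRNA, every group was the same parental line, and no cytokine was among the treatments in the labels.

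Chemokines are small secreted proteins that steer the migration of white blood cells. CXCL8 (interleukin-8) acts through the receptors CXCR1 and CXCR2, and CXCL1, CXCL2 and CXCL3 act mainly through CXCR2. These chemokines are best known for attracting neutrophils. CCL20 acts through CCR6 and attracts dendritic cells and lymphocytes, including those that enter the gut mucosa. Epithelial cells transcribe these genes when NF-κB dimers reach the nucleus after their inhibitor IκBα has been degraded, often together with factors of the AP-1 and C/EBP families. Tsg101 and Vps28 are core subunits of ESCRT-I, a complex that sorts ubiquitinated membrane proteins, cytokine receptors among them, from endosomes toward lysosomal degradation.

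Between 2561790 and 7466916 reads were counted on genes per library, with a median of 5022216, so that 1 count in a library was worth 0.134 to 0.393 CPM, the read count scaled to library size. TSG101 mRNA fell by 4.84 and 5.10 on the log2 scale in siTsg101#1 and siTsg101#2, and VPS28 mRNA fell by 4.15 and 4.07 in siVps28#1 and siVps28#2. Of the 10 colorectal epithelial markers examined, EPCAM, KRT8, KRT18 and CDX2 were expressed, whereas CDH1, CDH17, KRT19, KRT20, CDX1 and VIL1 had 0 to 6 counts over all libraries. Of 7 leukocyte markers, 5 were at 0 counts in every library, including PTPRC, CD14 summed to 9 counts and ITGAM to 16. The summed leukocyte signal was 0 to 0.370 CPM in control libraries and 0 to 0.922 CPM in on-target libraries. Markers of fibroblasts summed to at most 1.475 CPM in controls and 1.474 CPM with on-target siRNAs, and those of endothelium to at most 0.238 and 0.504 CPM.

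The 4 CXC genes lie in 1 cluster on chromosome 4 of GRCh37 that spans 358678 bases from CXCL8 to CXCL2. CXCL8 (ENSG00000169429) occupies 74606236 to 74609433 and CXCL1 (ENSG00000163739) 74735110 to 74737025, both on the plus strand. CXCL3 (ENSG00000163734) occupies 74902306 to 74904524 and CXCL2 (ENSG00000081041) 74962757 to 74964913, both on the minus strand. CCL20 (ENSG00000115009) lies apart on chromosome 2, from 228670455 to 228682280 on the plus strand. No antisense gene overlaps the exons of these 5 genes. In stretches of 50 bases, 21.8% of the CXCL1 transcript is shared with other genes, mainly CXCL2, as are 31.7% of CXCL2, mainly with CXCL1, and 14.1% of CXCL3, mainly with CXCL2, whereas CXCL8 and CCL20 share none. Which stretch the panel amplifies was not known, so the division of reads among CXCL1, CXCL2 and CXCL3 is partly uncertain.

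The promoters are shown because all 5 genes carry a recognizable NF-κB element close to their start. Each line gives the 150 bases before the RefSeq start site, 5′ to 3′ on the strand of the gene. The sequences are RefSeq promoters (GRCh38.p14 table), each placed on GRCh37 by its single exact match. The positions are chr4:74606136-74606285 on the plus strand for CXCL8, chr4:74734960-74735109 on the plus strand for CXCL1, chr4:74964913-74965062 on the minus strand for CXCL2, chr4:74904407-74904556 on the minus strand for CXCL3 and chr2:228678408-228678557 on the plus strand for CCL20. GENCODE places the first start of CXCL8, CXCL3 and CCL20 further upstream. Capitals mark matches to the 10-base NF-κB decamer consensus or to GGAATTTCC and, in CXCL8, to the AP-1 element TGANTCA.
CXCL8: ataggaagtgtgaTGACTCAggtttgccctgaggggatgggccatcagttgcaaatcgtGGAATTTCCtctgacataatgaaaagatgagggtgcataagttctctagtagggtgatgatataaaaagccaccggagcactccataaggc
CXCL1: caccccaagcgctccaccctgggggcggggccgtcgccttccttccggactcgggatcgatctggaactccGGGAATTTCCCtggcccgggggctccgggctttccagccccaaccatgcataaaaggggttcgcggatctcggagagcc
CXCL2: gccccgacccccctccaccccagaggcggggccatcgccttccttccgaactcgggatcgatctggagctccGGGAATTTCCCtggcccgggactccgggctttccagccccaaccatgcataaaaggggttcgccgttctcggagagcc
CXCL3: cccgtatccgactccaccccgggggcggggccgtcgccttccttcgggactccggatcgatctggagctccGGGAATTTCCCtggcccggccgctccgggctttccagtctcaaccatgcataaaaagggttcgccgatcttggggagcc
CCL20: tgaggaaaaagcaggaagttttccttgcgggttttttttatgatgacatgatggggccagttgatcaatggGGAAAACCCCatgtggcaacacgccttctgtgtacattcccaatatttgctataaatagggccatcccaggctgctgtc

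The element GGAATTTCC was present in the promoters of the 4 CXC genes, at positions -91 to -83 from the start of CXCL8, -78 to -70 in CXCL1 and CXCL3 and -77 to -69 in CXCL2. It occurs in 0.464% of the 34943 RefSeq promoters of 300 bases when both strands are searched. The decamer consensus matched in CXCL1, CXCL2, CXCL3 and, on the opposite strand at -79 to -70, in CCL20; it matched in 11.3% of all promoters and, in the CXC genes, overlapped GGAATTTCC. The match in CXCL1, CXCL2 and CXCL3 reads the same 11 bases, flanked by stretches that are nearly alike. Over the 300 bases the promoters of CXCL1 and CXCL3 were 82.5% identical, those of CXCL2 and CXCL3 73.8%, and those of CXCL1 and CXCL2 71.9%, whereas every pair with CXCL8 or CCL20 was 45.2% to 52% identical. Only CXCL8 among the 5 held TGANTCA, at -137 to -131 (7.72% of all promoters), and CXCL8 and CCL20 held TATAAA (11.6% of all promoters). These matches are descriptions of the letters and were not tested for binding.

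**Figure D1:**
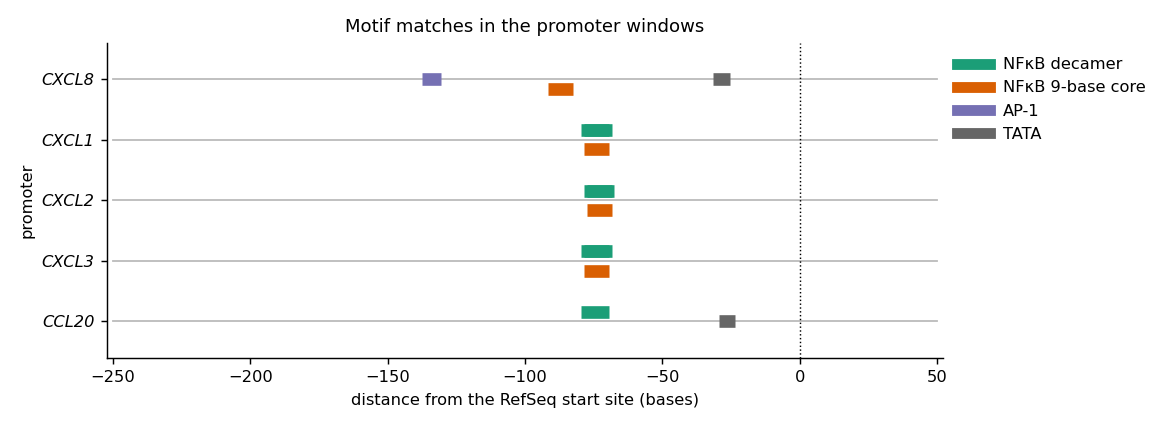
Positions of motif matches in the 300-base RefSeq promoters of the 5 chemokine genes; the x axis gives bases from the start site (dotted line) and each coloured block is a match on either strand. In each promoter an NF-κB match lies between positions -91 and -68, and an AP-1 match is drawn only for CXCL8.

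CXCL8 mRNA was close to the limit of detection in control cells and abundant after depletion of either ESCRT-I subunit. In replicates 1, 2 and 3 it had 5, 2 and 6 counts in siCtrl#1 and 3, 3 and 6 in siCtrl#2. It had 577, 507 and 1231 counts in siTsg101#1 and 525, 367 and 246 in siTsg101#2. In siVps28#1 it had 331, 359 and 370 counts and in siVps28#2 594, 357 and 337. Every on-target library thus held at least 246 counts and no control library more than 6. Normalized for depth, CXCL8 was at 0.887 ± 0.263 CPM (SD, n = 3) in siCtrl#1 and 0.850 ± 0.225 in siCtrl#2, against 173 ± 49.98 in siTsg101#1, 57.6 ± 19.8 in siTsg101#2, 85.4 ± 5.94 in siVps28#1 and 68.4 ± 20.9 in siVps28#2. Summed over replicates and relative to siCtrl#1, the fold was 179 in siTsg101#1 (95% counting interval 105 to 337), 62.8 in siTsg101#2 (36.6 to 118), 92.0 in siVps28#1 (53.6 to 173) and 74.5 in siVps28#2 (43.4 to 140). These intervals are exact for counting error only. In RNA from whole cultures, more cells with CXCL8 mRNA and more of it per cell cannot be told apart.

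CXCL1, also called GROα, had few counts in any library and rose with all on-target siRNAs. It had 0, 1 and 0 counts in siCtrl#1 and 1, 1 and 1 in siCtrl#2. Its counts were 23, 14 and 30 in siTsg101#1, 10, 12 and 5 in siTsg101#2, 5, 8 and 5 in siVps28#1 and 12, 9 and 8 in siVps28#2. No control library reached the lowest on-target library, which had 5 counts. In depth-normalized terms siTsg101#1 stood apart, with 9.03, 3.53 and 4.02 CPM in its replicates, whereas the other on-target libraries ranged from 0.798 CPM (siTsg101#2 replicate 3) to 1.87 CPM (siVps28#2 replicate 1). Because siCtrl#1 holds a single count, the folds are poorly bounded from above. They were 67.5 in siTsg101#1 (counting interval 11.7 to 2.7e+03), 19.4 in siTsg101#2 (3.19 to 793), 20.3 in siVps28#1 (3.21 to 846) and 21.8 in siVps28#2 (3.62 to 891).

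CXCL2, or GROβ, was detected in every control library and rose with all on-target siRNAs. Its counts were 3, 5 and 3 in siCtrl#1 and 3, 6 and 3 in siCtrl#2. They were 9, 42 and 58 in siTsg101#1, 43, 67 and 29 in siTsg101#2, 15, 20 and 16 in siVps28#1 and 41, 40 and 28 in siVps28#2. The control and on-target libraries did not overlap in counts or in CPM, although the 9 counts of siTsg101#1 replicate 1 came close to the highest control count of 6. That library was the shallowest of the 18 and was also the lowest of its group for CXCL2 in CPM (3.54 against 10.6 and 7.77), while it was the highest of its group for CXCL8, CXCL1 and CXCL3. Relative to siCtrl#1 the fold of CXCL2 was 9.98 (5.36 to 20.6), 9.06 (4.91 to 18.6), 5.23 (2.69 to 11.1) and 7.45 (4.00 to 15.4) in siTsg101#1, siTsg101#2, siVps28#1 and siVps28#2. The folds against siCtrl#1 were below those of the other 4 genes, but against siCtrl#2 the fold of CXCL2 in siTsg101#2 was 8.10, above 6.30 for CXCL1 and 6.62 for CXCL3.

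CXCL3, or GROγ, rose with all on-target siRNAs, and the means of the on-target groups lay within a narrower ratio than those of CXCL8. It had 0, 2 and 2 counts in siCtrl#1 and 4, 6 and 3 in siCtrl#2. On-target counts were 36, 27 and 55 in siTsg101#1, 45, 48 and 30 in siTsg101#2, 27, 52 and 36 in siVps28#1 and 85, 44 and 49 in siVps28#2. The highest control library had 6 counts and the lowest on-target library 27. Mean levels were 9.44 ± 4.08 CPM (SD, n = 3) in siTsg101#1, 6.23 ± 1.27 in siTsg101#2, 9.14 ± 2.47 in siVps28#1 and 9.46 ± 3.33 in siVps28#2, against 0.306 ± 0.296 in siCtrl#1 and 0.983 ± 0.436 in siCtrl#2. The summed control counts of CXCL3 were 4 in siCtrl#1 and 13 in siCtrl#2.

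CCL20 was practically absent from control cells. A single count in siCtrl#1 replicate 3 was the only one in the 6 control libraries. In siTsg101#1 it had 8, 13 and 34 counts, in siTsg101#2 9, 7 and 7, in siVps28#1 5, 5 and 9 and in siVps28#2 10, 10 and 7. Each on-target library therefore held at least 5 counts. The levels were 3.66 ± 0.780 CPM (SD, n = 3) in siTsg101#1, 1.17 ± 0.158 in siTsg101#2, 1.51 ± 0.424 in siVps28#1 and 1.44 ± 0.235 in siVps28#2. Against siCtrl#2, which had 0 counts, 3 counts over the group were used as the floor, and CCL20 was at least 18-fold higher in siTsg101#1, at least 5.36-fold in siTsg101#2, at least 6.97-fold in siVps28#1 and at least 6.60-fold in siVps28#2. Against the 1 count of siCtrl#1 the ratio was 55.4 in siTsg101#1 (9.54 to 2.23e+03), 16.5 (2.68 to 679) in siTsg101#2, 21.4 (3.41 to 891) in siVps28#1 and 20.3 (3.35 to 831) in siVps28#2.

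**Figure D2:**
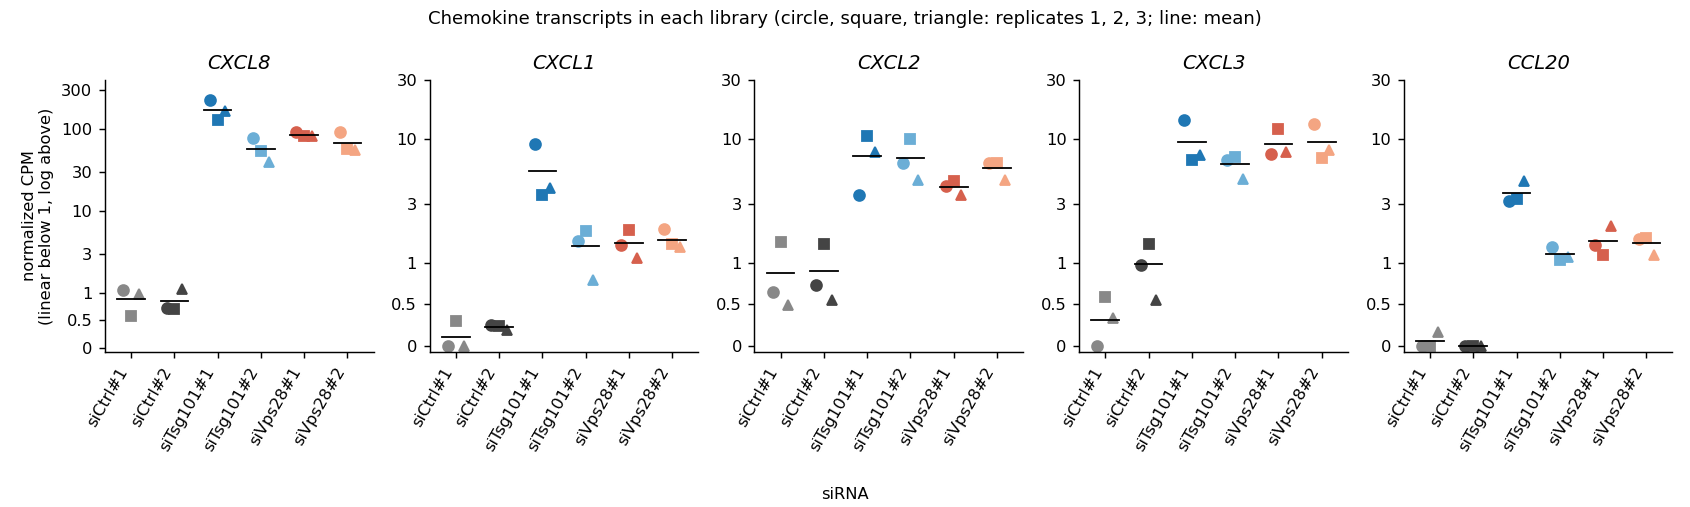
Depth-normalized level (CPM, y axis, linear below 1 and logarithmic above) of the 5 chemokine genes in each of the 18 libraries, grouped by siRNA on the x axis; symbols are replicates and horizontal lines are group means. The 12 on-target libraries lie above the 6 control libraries for every gene, and siTsg101#1 lies above the other on-target groups for CXCL8, CXCL1 and CCL20. The share of all genes with the same separation of on-target from control libraries was not counted.

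The first comparison asked how far each gene changed when ESCRT-I was depleted. Changes were estimated with the quasi-likelihood test of edgeR on all libraries in one fit, and a gene was called when it changed at least 1.5-fold with a Benjamini-Hochberg adjusted p under 0.05. Averaged over the 4 on-target siRNAs and relative to siCtrl#1, CXCL8 rose by 6.53 on the log2 scale (standard error 0.35, adjusted p = 7.19e-12, edgeR), CXCL1 by 4.40 (0.75, 1.63e-04), CXCL2 by 2.87 (0.43, 3.36e-05), CXCL3 by 4.76 (0.51, 6.11e-07) and CCL20 by 4.24 (0.66, 8.49e-05). All 5 genes were called higher with each of the 4 siRNAs, where 11.8% of the 10213 genes tested were called higher and 10.1% lower in siTsg101#1, 10.4% and 6.66% in siTsg101#2, 4.91% and 3.75% in siVps28#1, 7.09% and 6.23% in siVps28#2, and 2.58% and 1.54% with all of them. The count of 5 carries no weight of its own: only genes with more than 100 counts in sum were tested, and between 94.7% (CXCL2) and 99.6% (CXCL8) of the counts of each member came from on-target libraries, so that each entered the test through the groups in which it was high. The full separation of on-target from control libraries carries no weight of its own either, as its share over all genes was not counted. The largest adjusted p among the 20 comparisons was 0.00737, for CXCL1 in siVps28#1 (edgeR). All 5 genes were likewise called with each siRNA when siCtrl#2 was the reference, where 8.94% of all genes were called higher and 7.13% lower in siTsg101#1, 8.43% and 5.98% in siTsg101#2, 2.71% and 1.69% in siVps28#1 and 5.1% and 4.15% in siVps28#2. With siCtrl#2 as the reference the mean log2 fold change was 3.06 for CXCL1, 3.10 for CXCL3 and 6.21 for CCL20, and CXCL1 in siVps28#1 was called with an adjusted p of 0.0493 (edgeR). Single control counts moved the sparse genes, as the mean change of CXCL1 was 6.40 without siCtrl#1 replicate 2 and 3.74 without siCtrl#1 replicate 3, and that of CCL20 was 6.19 without siCtrl#1 replicate 3, all still called.

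**Figure D3:**
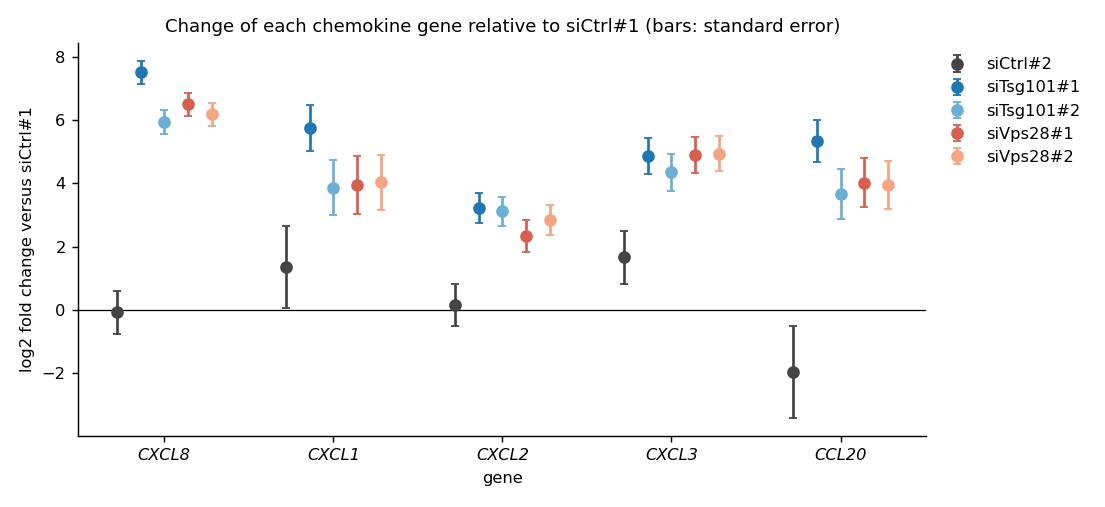
Log2 fold change relative to siCtrl#1 (y axis; bars are standard errors from edgeR) of the 5 chemokine genes with siCtrl#2 and with the 4 on-target siRNAs. All on-target points lie between 2.33 and 7.51, and the siCtrl#2 points, none of them called, lie between -1.97 and 1.66.

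The background between the nontargeting siRNAs was measured in the same fit. No member was called between siCtrl#2 and siCtrl#1 by edgeR, and none had an unadjusted p under 0.05 in edgeR. In that fit 1.41% of all genes were called higher and 0.676% lower in siCtrl#2. DESeq2 did not call CXCL8, CXCL2 or CXCL3 and gave no adjusted p for CXCL1 and CCL20. CXCL8 and CXCL2 differed by -0.08 and 0.14, each less than its standard error. CXCL3 came closest to a difference, at 1.66 (standard error 0.83, adjusted p = 0.362, edgeR), and was higher in siCtrl#2 in all 3 batches. Its summed counts gave a ratio of 3.33 with a counting interval of 1.03 to 14. The 3 and 1 counts of CXCL1 and the 0 and 1 counts of CCL20 were too few to show a difference at this depth.

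For 3 of the genes, levels differed between the siRNAs against Tsg101, and for these genes that difference was larger in size than every other difference among the on-target groups. CXCL8 was higher in siTsg101#1 than in siTsg101#2 by 1.58 on the log2 scale (standard error 0.23, adjusted p = 1.19e-04, edgeR), CXCL1 by 1.89 (0.41, 0.00506) and CCL20 by 1.68 (0.37, 0.00735). CXCL2 (0.10, standard error 0.33, 95% interval -0.58 to 0.79) and CXCL3 (0.52, standard error 0.33, interval -0.16 to 1.21) were not called. These 3 of 5 genes called higher compare with 3.11% of all genes tested, while 3.87% were called lower. However, siTsg101#1 held 67 of the 145 counts of CXCL1 and 55 of the 125 counts of CCL20. Both genes passed the minimum of 100 counts only through this group, so their calls here carry no weight of their own. Within each batch, defined by the replicate number, siTsg101#1 exceeded siTsg101#2 by 2.88-, 2.33- and 4.20-fold for CXCL8, by 6.03-, 1.97- and 5.04-fold for CXCL1 and by 2.33-, 3.13- and 4.08-fold for CCL20, whereas the ratios for CXCL2 were 0.549, 1.06 and 1.68. The call for CCL20 rested on siTsg101#1 replicate 3, without which the difference was 1.44 (adjusted p = 0.0836, edgeR). TSG101 mRNA itself was not called between these groups, with a difference of 0.26 and a standard error of 0.42. The counted reads ranged from 2561790 to 7466916 in siTsg101#1 and from 6225509 to 6586916 in siTsg101#2, and their part in the difference was not tested.

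Comparisons of single siRNAs across targets were added after the values were seen. The same 3 members were higher in siTsg101#1 than after each siRNA against Vps28. It exceeded siVps28#1 by 1.01 for CXCL8 (adjusted p = 0.00535, edgeR), 1.81 for CXCL1 (0.00981) and 1.31 for CCL20 (0.0382), with 4.26% of all genes called higher and 3.88% lower. It exceeded siVps28#2 by 1.33 for CXCL8 (adjusted p = 4.24e-04, edgeR), 1.72 for CXCL1 (0.00788) and 1.38 for CCL20 (0.0179), with 4.03% of all genes called higher and 4.25% lower. CXCL2 and CXCL3 were called in neither comparison, although the interval for CXCL2 against siVps28#1 ran from 0.12 to 1.65. As CXCL1 and CCL20 passed the minimum for testing only through siTsg101#1, their calls in both comparisons carry no weight of their own. Several of the calls with siTsg101#1 also depended on single libraries or on the method. Without siTsg101#1 replicate 1 the adjusted p from edgeR against siVps28#1 was 0.0539 for CXCL8 and 0.0656 for CXCL1, and against siVps28#2 it was 0.0614 for CXCL1. Without siVps28#1 replicate 3 that for CXCL1 against siVps28#1 was 0.0550. CCL20 against siVps28#1 lost its call when any siTsg101#1 library or siVps28#1 replicate 1 or 2 was left out (highest adjusted p = 0.217, edgeR), with DESeq2 (0.133), with no filter on low counts (0.115) and in a fit of these 2 groups alone (0.0564). CCL20 against siVps28#2 lost its call without siTsg101#1 replicate 3 (0.149), without siVps28#2 replicate 3 (0.0676), with DESeq2 (0.0791) and with no filter (0.0600).

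The other 3 on-target groups showed few differences that passed the test. No member was called between siVps28#1 and siVps28#2, where 0.215% of all genes were called higher and 0.264% lower, nor between siTsg101#2 and siVps28#2, where 4.44% were called higher and 2.82% lower. Between siTsg101#2 and siVps28#1 none was called either (3.3% of all genes higher and 1.77% lower), but CXCL8 was lower in siTsg101#2 by a log2 difference of -0.57 (95% interval -1.04 to -0.09, adjusted p = 0.177, edgeR). With the replicate number as a block this difference was -0.61 with an adjusted p of 0.0243 (edgeR) and was called, as it also was without siTsg101#2 replicate 1 (-0.86, 0.0483). CXCL8 and CCL20 were lower in siTsg101#2 than in each siVps28 group in 3 of 3 batches. CXCL3 was lower in siTsg101#2 than in siVps28#1 in 3 of 3, whereas CXCL2 was higher there in 3 of 3. CXCL2 was lower in siVps28#1 than in siVps28#2 in 3 of 3. The CCL20 libraries of these groups had 5 to 10 counts each. The share of all genes with the same direction in each batch was not counted.

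**Figure D4:**
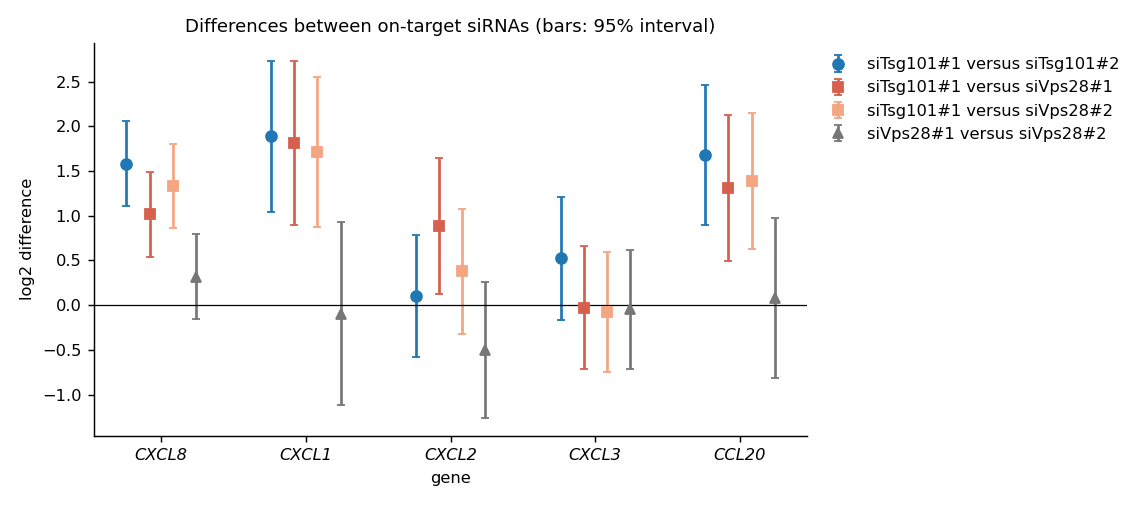
Log2 differences between on-target siRNAs (y axis) with 95% intervals from edgeR for the 5 chemokine genes. The 3 contrasts with siTsg101#1 lie above 0 with their intervals for CXCL8, CXCL1 and CCL20, whereas for CXCL3 every interval holds 0.

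The ratio of members within a library needs no scaling, and 2 such ratios were formed after the values were seen, as a description. CXCL8 had 16, 18.8 and 22.4 counts per count of CXCL3 in the siTsg101#1 libraries, 11.7, 7.65 and 8.20 in siTsg101#2, 12.3, 6.90 and 10.3 in siVps28#1 and 6.99, 8.11 and 6.88 in siVps28#2. The siTsg101#1 libraries lay above all others in this ratio, which was not tested. Relative to CXCL2 the siTsg101#1 libraries did not stand apart, with 64.1, 12.1 and 21.2 against 12.2, 5.48 and 8.48 in siTsg101#2 and 22.1, 17.9 and 23.1 in siVps28#1.

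Whether depletion of Tsg101 and of Vps28 differed was tested on the means of both siRNAs for each target. No member was called by edgeR or DESeq2, where 4.16% of all genes were called higher and 2.07% lower after Tsg101 depletion, while 3 members had an unadjusted p under 0.05 in edgeR. The log2 difference was 0.38 for CXCL8 (95% interval 0.05 to 0.72, adjusted p = 0.131, edgeR), 0.82 for CXCL1 (0.15 to 1.49, 0.103), 0.58 for CXCL2 (0.07 to 1.09, 0.134), -0.31 for CXCL3 (-0.79 to 0.16, 0.429) and 0.51 for CCL20 (-0.09 to 1.11, 0.286). With the replicate block CXCL8 had an adjusted p of 0.0371 at a difference of 0.37 (edgeR), which is under 1.5-fold. For CXCL8, CXCL1 and CCL20 this mean joins siTsg101#1 and siTsg101#2 groups that themselves differed.

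Across the 18 libraries the members rose and fell together, as they share the split into control and on-target groups. Pearson's r of log2 CPM lay between 0.812 (CXCL1 and CXCL2) and 0.965 (CXCL8 and CCL20). Over the 12 on-target libraries alone CXCL8 remained close to CXCL1 (0.899) and CCL20 (0.840), whereas its r with CXCL2 was -0.02 and with CXCL3 0.561. After removal of the group means the highest r was 0.796, between CXCL1 and CXCL3, and that between CXCL8 and CXCL2 was -0.38. These values are descriptions over libraries that share depth and, for the sparse genes, large counting error.

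The genes most like the mean of the 4 CXC members over the 18 libraries, among the 10213 tested, were IRAK2 (r = 0.975), NFKBIA (0.973), NINJ1 (0.965), TNFRSF9 (0.950) and IDI1 (0.949). Those most like CCL20 were NINJ1 (0.964), CD82 (0.964) and NFKBIA (0.958). IRAK2, a kinase-like adaptor of interleukin-1 and Toll-like receptors, had 22, 23 and 30 counts in siCtrl#1 and 141, 129 and 289 in siTsg101#1. These genes were chosen for their pattern over these same libraries, so their values are given as a description, with no test. TNFRSF9, a receptor of the TNF family also known as 4-1BB, was like CXCL8 highest in siTsg101#1 and lowest of the on-target groups in siTsg101#2. Its only control counts were 2 in siCtrl#2 replicate 2, and it had 69, 60 and 173 counts in siTsg101#1, 30, 24 and 4 in siTsg101#2, 19, 29 and 14 in siVps28#1 and 44, 30 and 21 in siVps28#2. With 2 control counts in all it passed the minimum for testing only through the on-target groups. NINJ1, which encodes the plasma membrane protein ninjurin 1, was higher in siTsg101#1 than in siTsg101#2 by 1.02 on the log2 scale and CD82, a tetraspanin of whose exons 280 bases overlap an antisense gene, by 1.26. IDI1, an isomerase of the mevalonate pathway with 643 bases of antisense overlap, had a difference of -0.24 there. With the replicate block 3 of the 5 genes nearest to the CXC mean were the same, and MSANTD3 and MMP10 took the places of TNFRSF9 and IDI1. Of the genes nearest to CCL20, TNFRSF9 took the place of NFKBIA with the block, and with a prior count of 0.5 FBXO32 ranked first and NINJ1 was not among them.

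Other chemokines stayed at or near 0. Of the 41 further ligands listed, 38 were on the panel and none had enough counts to be tested; 24 had 0 counts in every library and 37 had 20 or fewer in all. Between CXCL8 and CXCL2 on chromosome 4 lie CXCL6, PF4V1, PF4, PPBP and CXCL5, and these 5 neighbours had 12 counts together over the 18 libraries, of which CXCL6 had 9. CCL5, a chemokine that attracts T cells, was the exception with 53 counts, all of them in on-target libraries. It had 4, 4 and 26 counts in siTsg101#1, 2, 3 and 0 in siTsg101#2, 2, 0 and 2 in siVps28#1 and 3, 4 and 3 in siVps28#2. Of these 53 counts, 26 thus came from siTsg101#1 replicate 3, and 23% of the CCL5 transcript is shared with ZNF883. Among 23 chemokine receptors 21 were on the panel and 17 of these were at 0 counts throughout, including CXCR1, CXCR2 and CCR6, the receptors of the chemokines described here. Only CCRL2, an atypical receptor, was tested. It was not called with any siRNA relative to siCtrl#1 (mean 0.21, standard error 0.25), and it was called lower in siTsg101#1 than in siVps28#2 (-1.14, adjusted p = 0.0162, edgeR).

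The core genes of the NF-κB pathway were examined as a list of 17, of which 16 were tested. In the mean of the on-target siRNAs 12 were called higher and none lower, with a median log2 fold change of 1.17, where 8.56% of all genes were called higher and 6.54% lower, with a median of 0.00. The inhibitor genes NFKBIA and TNFAIP3 had the largest changes of the list. NFKBIA, which encodes IκBα, had 120, 218 and 244 counts in siCtrl#1, 173, 177 and 162 in siCtrl#2, 1401, 1116 and 3190 in siTsg101#1, 1806, 1240 and 1302 in siTsg101#2, 797, 854 and 1019 in siVps28#1 and 1425, 1283 and 1251 in siVps28#2. Its lowest on-target library, at 185 CPM, was above its highest control library, at 64.3 CPM. The share of all genes separated in this way was not counted. NFKBIA was higher in siTsg101#1 than in siTsg101#2 by 0.92, given without a test because it is also among the genes nearest in pattern to the chemokines. TNFAIP3, the ubiquitin editor A20, rose by 1.92 (standard error 0.30, adjusted p = 6.47e-05, edgeR), NFKBIE by 1.54, CYLD by 1.35, NFKBIZ by 1.20, TNIP1 by 0.99 and NFKBIB by 0.91. CYLD, a deubiquitinase, was also called higher in siCtrl#2 than in siCtrl#1 (0.70, adjusted p = 0.0266, edgeR).

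Among the NF-κB subunits RELB rose by 1.53 (standard error 0.16, adjusted p = 4.89e-07, edgeR), NFKB2 by 1.39, NFKB1 by 0.98 and REL by 0.79, whereas RELA, whose protein forms the classical dimer with p50, was not called (0.28, standard error 0.17). REL shares 52.2% of its transcript with a gene that overlaps it on the same strand. NFKB2 had 65 counts in siVps28#2 replicate 3 against 1277 and 1447 in the other replicates of that group, and none of the chemokine genes was that far below its group in this library. The kinase genes CHUK (0.00) and IKBKB (-0.01) were not called, and MAP3K14, the kinase of the noncanonical branch, rose by 1.59 (standard error 0.20, adjusted p = 5.97e-06, edgeR), with 858 exonic bases shared with an antisense gene. With each of the 4 siRNAs separately, 10 of the 16 were called higher, beside 2.58% of all genes, namely NFKB1, RELB, MAP3K14, NFKBIA, NFKBIB, NFKBIE, NFKBIZ, TNFAIP3, TNIP1 and CYLD. BCL3, a nuclear IκB protein, and TNFAIP3 were the 2 of 16 called between the depletions, where 4.16% of all genes were called higher and 2.07% lower, both of them higher after Tsg101 depletion, BCL3 by 2.03 (standard error 0.31, adjusted p = 6.87e-05, edgeR) and TNFAIP3 by 1.52 (0.21, 1.54e-05). BCL3 was called in siTsg101#1 (2.51) and siTsg101#2 (1.82) but not in siVps28#1 (0.45) or siVps28#2 (-0.19). Of its 304 counts, 35, 24 and 51 were in siTsg101#1 and 26, 53 and 24 in siTsg101#2. BCL3 thus passed the minimum for testing only through the siTsg101 groups, and its calls carry no weight of their own.

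**Figure D5:**
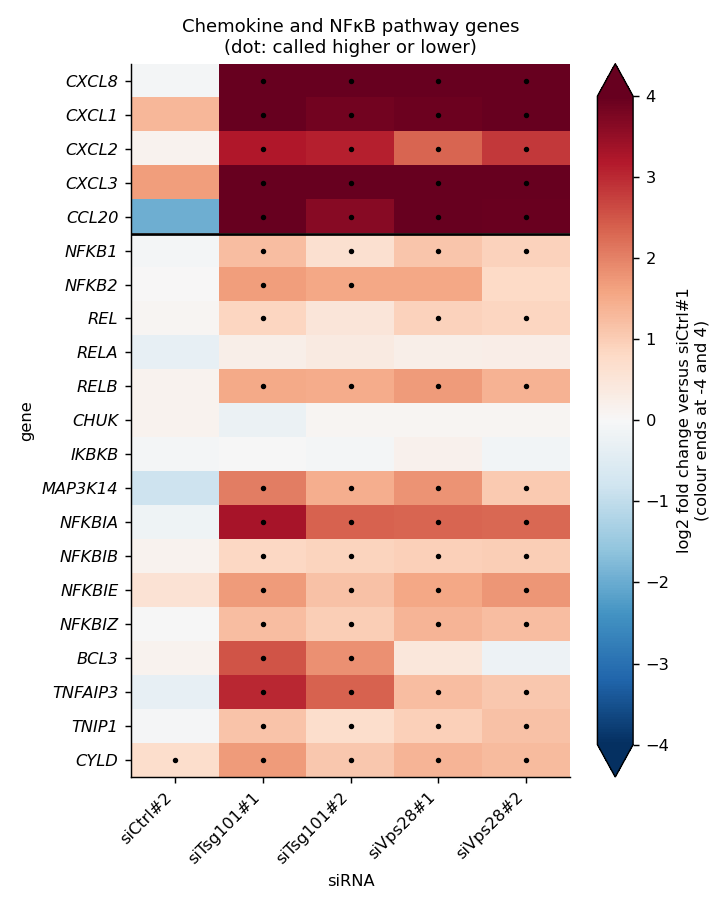
Log2 fold change relative to siCtrl#1 (colour, ending at -4 and 4) of the 5 chemokine genes (above the line) and of the 16 tested NF-κB pathway genes for each siRNA on the x axis; dots mark genes called higher or lower. The siCtrl#2 column holds a single dot, for CYLD, while RELA, CHUK and IKBKB have none with any siRNA.

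Of 21 cytokines and receptors that act upstream of or beside NF-κB, 8 were tested, and in the mean of the on-target siRNAs 3 were called higher and none lower, beside 8.56% and 6.54% of all genes. These were CSF2, the cytokine GM-CSF (3.19, standard error 0.53, adjusted p = 1.57e-04, edgeR), IL11 (1.98, 0.33, 1.30e-04) and CSF1 (1.28, 0.21, 8.52e-05). With 6 of its 318 counts in control libraries, CSF2 passed the minimum for testing only through the on-target groups. Its call therefore carries no weight of its own. CSF2 had 4, 2 and 0 counts in siCtrl#1, 0 in each siCtrl#2 library, 20, 19 and 26 in siTsg101#1, 11, 9 and 10 in siTsg101#2, 11, 26 and 18 in siVps28#1 and 48, 45 and 69 in siVps28#2. It shared the lower level of siTsg101#2 with CXCL8 (siTsg101#1 higher by 1.70, adjusted p = 0.0195, edgeR), but its highest level was in siVps28#2, and in siTsg101#2 it was not called relative to siCtrl#1 (adjusted p = 0.0679, edgeR). IL11 went the opposite way between the siTsg101 siRNAs, at -1.34 (standard error 0.35, adjusted p = 0.0195, edgeR). TNF had 11 counts in all, each in an on-target library, and IL1B, IL6 and LTA had none. TNFRSF1A, the main TNF receptor, was called higher in siTsg101#1 (0.84, adjusted p = 3.68e-04, edgeR) and siTsg101#2 (0.72, 0.00189), had values of 0.07 in siVps28#1 and -0.06 in siVps28#2, and was called higher after Tsg101 than after Vps28 depletion (0.78, adjusted p = 2.75e-05, edgeR). LTBR, the lymphotoxin β receptor, with 422 exonic bases shared with an antisense gene, was called only in siVps28#2 relative to siCtrl#1, where it was lower (-0.67, adjusted p = 0.0115, edgeR).

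The last list held 18 genes for transcription factors and RNA-binding proteins that act on chemokine genes or transcripts, all of them tested. In the mean of the on-target siRNAs 4 were called higher and 1 lower, with a median of 0.21, beside 8.56% of all genes called higher and 6.54% lower. CEBPB, a C/EBP factor that acts at the CXCL8 promoter, had 11, 0 and 23 counts in siCtrl#1, 13, 2 and 7 in siCtrl#2, 160, 125 and 468 in siTsg101#1, 369, 272 and 301 in siTsg101#2, 45, 21 and 35 in siVps28#1 and 51, 26 and 53 in siVps28#2. It was higher after Tsg101 than after Vps28 depletion by 2.72 (standard error 0.28, adjusted p = 2.35e-07, edgeR). Between siTsg101#1 and siTsg101#2 it did not differ beyond its error (0.13, standard error 0.34). CEBPB shares 231 exonic bases with an antisense gene. JUNB (0.98), with 259 bases of antisense overlap, FOSL2 (0.99) and ZC3H12A (0.78), an RNase that degrades cytokine transcripts, were the others called higher, and FOSB (-0.63) was called lower. With each of the 4 siRNAs separately, 2 of the 18 were called higher, JUNB and CEBPB, beside 2.58% of all genes. FOSL2 was not called in siVps28#2 and ZC3H12A not in siTsg101#2. FOSB was called lower with both siTsg101 siRNAs but with neither siVps28 siRNA. ZC3H12A was also higher in siTsg101#1 than in siTsg101#2, by 0.67 (standard error 0.20, adjusted p = 0.0372, edgeR). The transcripts of the RNA-binding proteins ZFP36 (-0.25), ZFP36L1 (0.20), ELAVL1 (-0.21) and KHSRP (-0.39), which destabilize or stabilize chemokine transcripts, were not called. KHSRP missed the call by size alone, as its change was under 1.5-fold (95% interval -0.64 to -0.13, adjusted p = 0.0241, edgeR).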

How the data were processed

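The authors prepared libraries with the Ion AmpliSeq Transcriptome panel, aligned Ion Proton reads to its hg19 reference with TMAP and counted them with HTSeq 0.6.0; the strand setting is not given in the sources used here. The deposited values are raw read counts for each target, not normalized; reads assigned to no feature (48.23% to 49.07% per library) were left out of the library sizes. Groups came from the labels, which do not name separate cultures beyond the batch, while the study describes 3 independent experiments. The main fit did not pair the groups within a batch, so its p-values measure the spread between these libraries. As in the study's methods, genes with more than 100 counts in sum were kept (10632 of 20802), 419 noncoding genes were left out, and 10213 were tested. Counts were normalized by TMM and tested with edgeR 4.0.16 under R 4.3.3 (quasi-likelihood, Benjamini-Hochberg adjustment, prior count 0.125), with the 6 groups in one fit. DESeq2 1.42.0, RLE size factors, other filters, other reference groups, a fit of single contrasts and each library left out were alternatives. Group ratios of summed counts carry exact 95% intervals for counting error only, since reads had no molecular identifiers. The likeness of genes was Pearson's r of log2 CPM (prior count 2). Named genes are the members, the targets, members of the gene lists, and the 5 and 3 genes nearest in pattern. Members and lists were chosen with earlier results of these data known. The labels give the replicate number as the batch, which pairs the libraries; same-numbered libraries of different groups deviated together with a mean correlation of 0.145 across genes (45 pairs), against -0.0729 for the other 90. The test was tried on simulated counts. Replicates of each group differed beyond sampling noise. The identity of the proteins was not analysed here.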

Additional observations from a re-analysis of the deposited data

Results flagged for a closer look

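For 3 of the chemokine genes the effect of siTsg101#1 differed from that of siTsg101#2, although both target the same mRNA. The log2 difference tested with edgeR was 1.58 for CXCL8, 1.89 for CXCL1 and 1.68 for CCL20, each higher with siTsg101#1 in 3 of 3 batches. CXCL2 (0.10) and CXCL3 (0.52) were not called in the same contrast. CXCL1 and CCL20 passed the minimum for testing only through siTsg101#1, so their calls carry no weight of their own.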

How the results depend on the processing

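All members were called higher with each on-target siRNA in every alternative that could be computed, the replicate block included, and no called value changed sign. A minimum of 10 counts in every library kept 8734 genes and no member, so it gave no value. Relative to the means of both controls the mean change was 3.73 for CXCL1, 3.93 for CXCL3 and 5.22 for CCL20. With libraries left out in turn, differences that were not called crossed 0: between siCtrl#2 and siCtrl#1 CXCL8 ranged from -0.34 to 0.0527 and CXCL2 from -0.32 to 0.62, between siVps28#1 and siVps28#2 CXCL1 from -0.32 to 0.0702, CXCL3 from -0.29 to 0.28 and CCL20 from -0.19 to 0.25, and between siTsg101#1 and siTsg101#2 CXCL2 from -0.19 to 0.45. CXCL3 ranged from -0.36 to 0.22 for siTsg101#1 against siVps28#1 and from -0.41 to 0.25 against siVps28#2. For siTsg101#2, CXCL1 ranged from -0.31 to 0.19 against siVps28#1 and from -0.41 to 0.0877 against siVps28#2, where CXCL8 ranged from -0.54 to 0.0311 and CXCL2 from -0.0669 to 0.50. CCL20 for siTsg101#1 against siTsg101#2 ranged from 1.44 to 1.79. The number of members called higher with siTsg101#1 than with siVps28#1 ranged from 0 to 3, and that called lower with siTsg101#2 than with siVps28#1 from 0 to 1; the cause was not tested. The replicate block called 1 member lower in the latter contrast (CXCL8) and left the other calls of the members as they were. With siCtrl#2 as the reference 0 factor genes were called lower, where FOSB had been. DESeq2 gave no adjusted p for CXCL1 and CCL20 between the controls. Control counts of 0 to 6 limit every fold, and the sparse members cannot show moderate differences.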

Other observations

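IL1A, which encodes interleukin-1α, was below the minimum for testing, with 61 counts in all. It had 0 counts in the 6 control libraries and at least 1 in each of the 12 on-target libraries, with 4, 5 and 15 in siTsg101#1, 12, 3 and 7 in siTsg101#2, 5, 1 and 2 in siVps28#1 and 3, 2 and 2 in siVps28#2. The share of all genes with such a split was not counted. CSF3, the cytokine G-CSF, had 3 counts in control libraries and 66 in on-target libraries. IKBKG, which encodes the NF-κB kinase regulator NEMO and has 51% of its transcript in common with loci such as IKBKGP1, had 2 and 75. These raw sums for CSF3 and IKBKG cover 6 control and 12 on-target libraries of unequal depth. For them, too, the share of all genes with such a split was not counted. Of the epithelial markers, EPCAM was called higher in the mean of the on-target siRNAs (0.65, adjusted p = 0.0381, edgeR), but of the single on-target siRNAs it was called only in siTsg101#1, and it was also called higher in siCtrl#2 than in siCtrl#1 (1.02, adjusted p = 0.0473, edgeR). KRT8 was called lower in the mean (-0.69, adjusted p = 0.0127, edgeR) and, of the single siRNAs, only in siTsg101#1, while 525 bases of KRT8 exons overlap KRT18.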
